A study of Homo sapiens with 32 samples.

Results

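The genes described here are 34 known p53 target genes, taken by symbol from every count table, out of 24109 genes tested in at least 1 treated-minus-control comparison. They were chosen by name as transcriptional targets of p53. RNA was sequenced from 4 human prostate cancer cell lines in 32 libraries, 2 in each of 16 groups. LNCaP is an androgen-sensitive line with functional p53, C4-2 is its castration-resistant derivative, 22Rv1 is another castration-resistant line that makes p53, and PC3 is an androgen-independent line that lacks it. In the first experiment each line was infected with a scramble shRNA or with an shRNA against CSN5 (shCSN5), for which the titles give the same hairpin code in all 4 lines. In the second, LNCaP and 22Rv1 received DMSO or 5 µM CSN5i-3, and PC3 received DMSO or 10 µM CSN5i-3. The labels give no treatment time. In C4-2 the libraries titled C5i are described as DMSO and those titled NT as CSN5i-3 at 1 µM, so that comparison is given as titled C5i minus titled NT, and its direction holds only if the titles do. PC3 shCSN5 replicate 2 is listed in 1 field as drug treated, while its title and description name shCSN5. The labels do not say whether the 2 libraries of a group came from separate cultures, so the p-values speak only of the spread between libraries, which may be technical.

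COPS5 encodes CSN5, the metalloprotease of the COP9 signalosome. The complex strips the ubiquitin-like protein NEDD8 from cullin-RING ubiquitin ligases, and CSN5i-3 inhibits that activity. p53 is a transcription factor held low by the ubiquitin ligase MDM2. When it accumulates after DNA damage or other stress it binds response elements near its target genes, which include its own inhibitors, death receptors and other apoptosis genes, brakes on proliferation, DNA repair genes and genes of metabolism and lysosomal or mitochondrial turnover. Because MDM2 is itself a p53 target, the pathway contains a negative feedback loop.

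The p53 response element is a pair of decamer motifs, and the promoters of 3 members held one in the 300 bases around a RefSeq start site (250 before and 50 after, GRCh38.p14). The search used the p53 consensus decamer, named and not spelled because its positions are degenerate, on both strands, as 2 motifs with a spacer of 0 or 1 base and at most 2 mismatches over both. The core bases in the middle of each motif had to match, so mismatches were allowed only in the outer bases. The sequences below show what such an element looks like in members whose values are given later, with the element in capitals. That of AEN lies at chr15:88621286-88621339, that of FAS at chr10:88991289-88991348 and that of DDB2 at chr11:47214979-47214999, each on the plus strand. Positions are given relative to the start site whose window held the element. The AEN and FAS elements lie before that start and had 2 mismatches, and the DDB2 element lies just after it and had 0. FAS and DDB2 also have other RefSeq start sites, whose windows held no such element.
AEN: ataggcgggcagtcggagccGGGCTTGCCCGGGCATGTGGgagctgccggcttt
FAS: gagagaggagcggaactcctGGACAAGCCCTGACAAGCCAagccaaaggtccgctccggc
DDB2: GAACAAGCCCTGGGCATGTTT
Of all 35116 promoter windows in the RefSeq table, 97 (0.28%) held such an element, and 6.63% held an exact single decamer. Only 27 of 34 members (79.4%) matched the table, so a share over the members is void as a property of the list. TNFRSF10B, TNFRSF10C, TP53INP1, RRM2B, GADD45A, PHLDA3 and CMBL did not match. A match is a description of the letters, not a binding site, and no match says only that these letters are not in the window.

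COPS5, the targeted gene, fell in all 4 lines with shCSN5, at -4.50 ± 0.26 in LNCaP, -3.56 ± 0.12 in C4-2, -2.68 ± 0.11 in 22Rv1 and -3.18 ± 0.12 in PC3 (log2 fold change ± SE, edgeR adjusted p from 3.4e-08 to 0.0022). Each change that follows is the log2 fold change of treated over control libraries ± SE (n = 2 per group), and each level is in CPM, read counts scaled to the library total. "Rose" and "fell" are used at an adjusted p under 0.05 in edgeR's quasi-likelihood test. Libraries held 20.61 to 50.92 M counts each. Between replicates the chi-square per gene ran from 1.72 (PC3 DMSO) to 71.3 (LNCaP with shCSN5), and a value near 1 is what counting error alone would give. The summed level of 7 luminal prostate markers was 1253 to 6994 CPM per library in LNCaP, C4-2 and 22Rv1 and 114 to 411 in PC3, where KLK2 was at 0 in every group. The sum of 4 markers of PC3-type cells was 1672 to 2756 CPM in PC3 and at most 259 elsewhere. In these bulk samples, fewer cells of a kind and less RNA per cell cannot be told apart.

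With shCSN5 most of the p53 targets rose in the 3 lines that make p53. In LNCaP 26 of 33 tested members rose and 2 fell, where 18.3% of all genes rose and 17.4% fell, and the members' median was 1.02 against -0.007 for all genes. In C4-2 27 of 33 rose and 2 fell, against 15.7% and 16.2% of all genes (medians 1.04 and -0.021). In 22Rv1 24 of 33 rose and 3 fell, against 22.6% and 21.3% of all genes (medians 0.67 and 0.02). Of the 32 members tested in all 3 lines, 16 rose in each, while 6.07% of the 13371 genes tested in all 3 did so. CMBL was the 1 member that fell in each, as did 7.41% of all genes. The LNCaP count depends on which library is left out, since the group that keeps 2 libraries then sets the spread. The chi-square per gene was 71.3 between the shCSN5 libraries and 1.83 between the scramble libraries. The members' median was 1.02 and 1.09 without scramble replicate 1 and 2, and 1.20 and 1.07 without shCSN5 replicate 1 and 2. Marker levels moved in the same libraries. The sum of the 4 PC3-type markers went from 7.12 and 7.41 to 26.7 and 26.2 CPM in LNCaP, mostly VIM, and from 119 and 130 to 203 and 208 CPM in 22Rv1, where ANXA1 went from 4.05 and 3.83 to 38.3 and 40.8 CPM. In C4-2 that sum was 15.7 and 16.8 against 14.3 and 15.4 CPM. The luminal sum in 22Rv1 was 1894 and 1961 CPM with scramble and 1435 in each shCSN5 library. The part of these markers in the p53-target values was not tested.

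**Figure D1:**
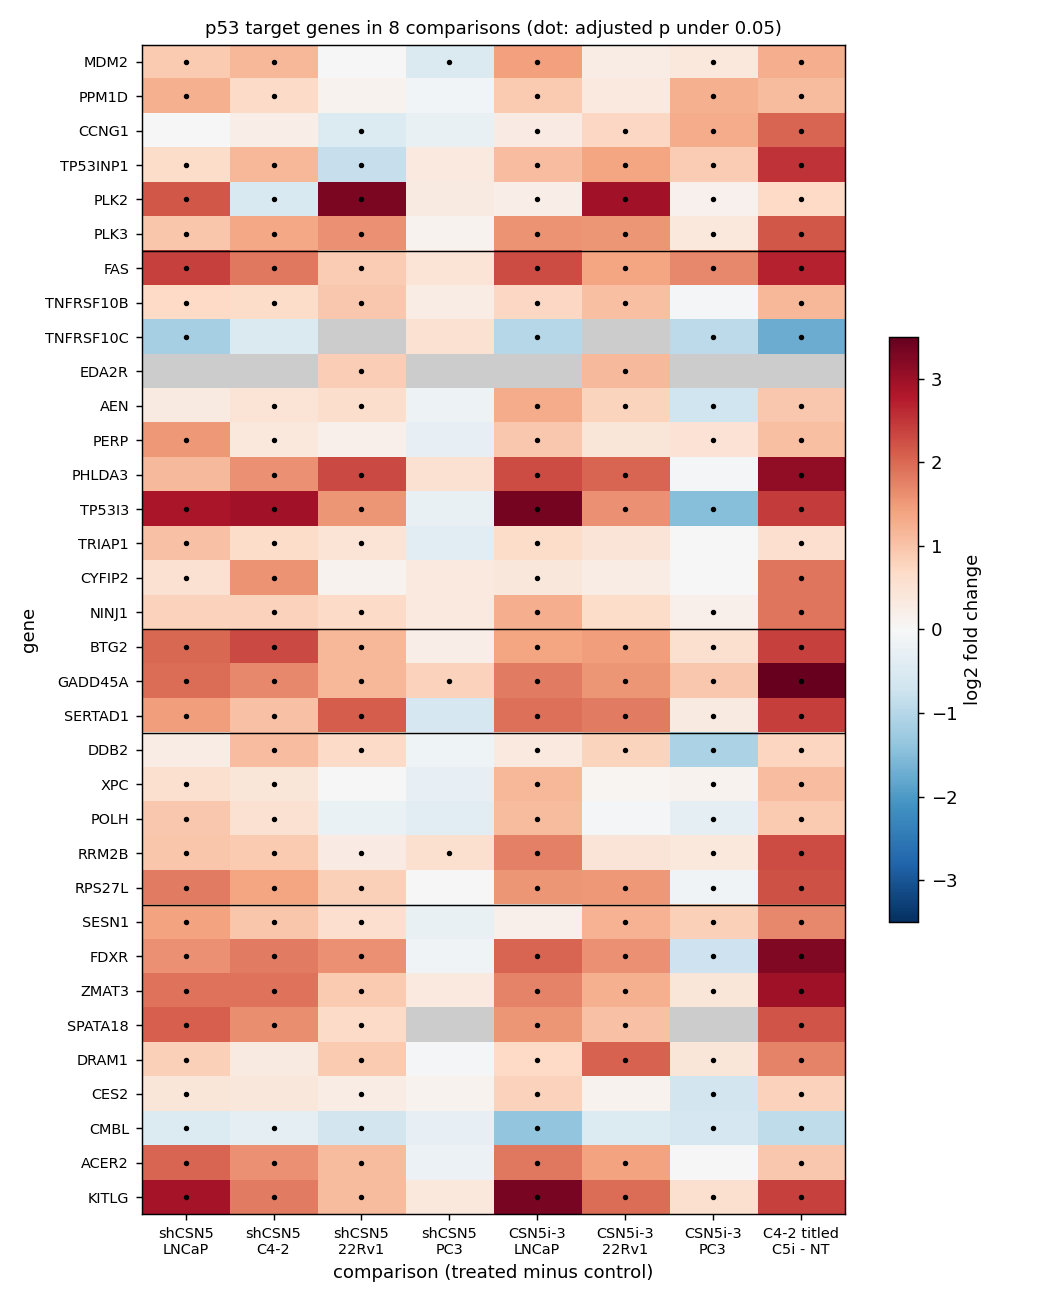
Log2 fold change (colour) of each of the 34 genes (rows, with black lines between the role groups) in 8 treated-minus-control comparisons (columns). Black dots mark an adjusted p under 0.05 and grey cells mark genes not tested or not in that table; most cells outside the PC3 columns are red, and shCSN5 in PC3 holds 3 dots.

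Among the genes that feed back on p53, MDM2, its ubiquitin ligase, rose in LNCaP and C4-2 and not in 22Rv1. In LNCaP its level was 115 and 110 CPM with scramble and 239 and 187 CPM with shCSN5 (0.92 ± 0.15, edgeR adjusted p = 0.0068, which becomes 0.076 without scramble replicate 1 and 0.11 without scramble replicate 2). In C4-2 MDM2 stood at 212 and 186 CPM with scramble, and shCSN5 took it to 436 and 450 CPM (1.16 ± 0.10, edgeR adjusted p = 0.00021). Both treated libraries exceeded both controls in each of these lines. In 22Rv1 the levels overlapped, at 261 and 303 CPM with scramble against 277 and 279 CPM with shCSN5 (-0.02 ± 0.09, edgeR adjusted p = 0.87).

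The other feedback genes differed by line. PLK2, a kinase of stress signalling, rose by 2.17 ± 0.16 in LNCaP, from 39.6 and 44.5 to 209 and 169 CPM. In 22Rv1 it rose more, by 3.30 ± 0.12, from 6.58 and 8.14 to 71.4 and 74.2 CPM. In C4-2 it went the other way, from 34.6 and 29.6 to 20.7 and 23.5 CPM. That C4-2 fall of 0.54 ± 0.14 had an edgeR adjusted p of 0.024, and the p ranged from 0.052 to 0.22 when any single library was left out and was 0.072 with no low-count filter. TP53INP1, a stress protein that promotes p53 phosphorylation, rose in LNCaP (0.65 ± 0.15) and C4-2 (1.15 ± 0.11) and fell in 22Rv1, from 126 and 141 to 75.5 and 76.5 CPM (-0.81 ± 0.08). CCNG1, cyclin G1, which recruits a phosphatase to MDM2, fell in 22Rv1 from 215 and 245 to 163 and 166 CPM (-0.48 ± 0.08) and was at -0.001 ± 0.14 in LNCaP and 0.24 ± 0.10 in C4-2, neither past the threshold. PPM1D, the phosphatase WIP1, rose in LNCaP (1.23 ± 0.16) and C4-2 (0.68 ± 0.14), with 0.13 ± 0.10 in 22Rv1. PLK3, another stress kinase, rose in all 3 lines, by 0.98 to 1.59.

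**Figure D2:**
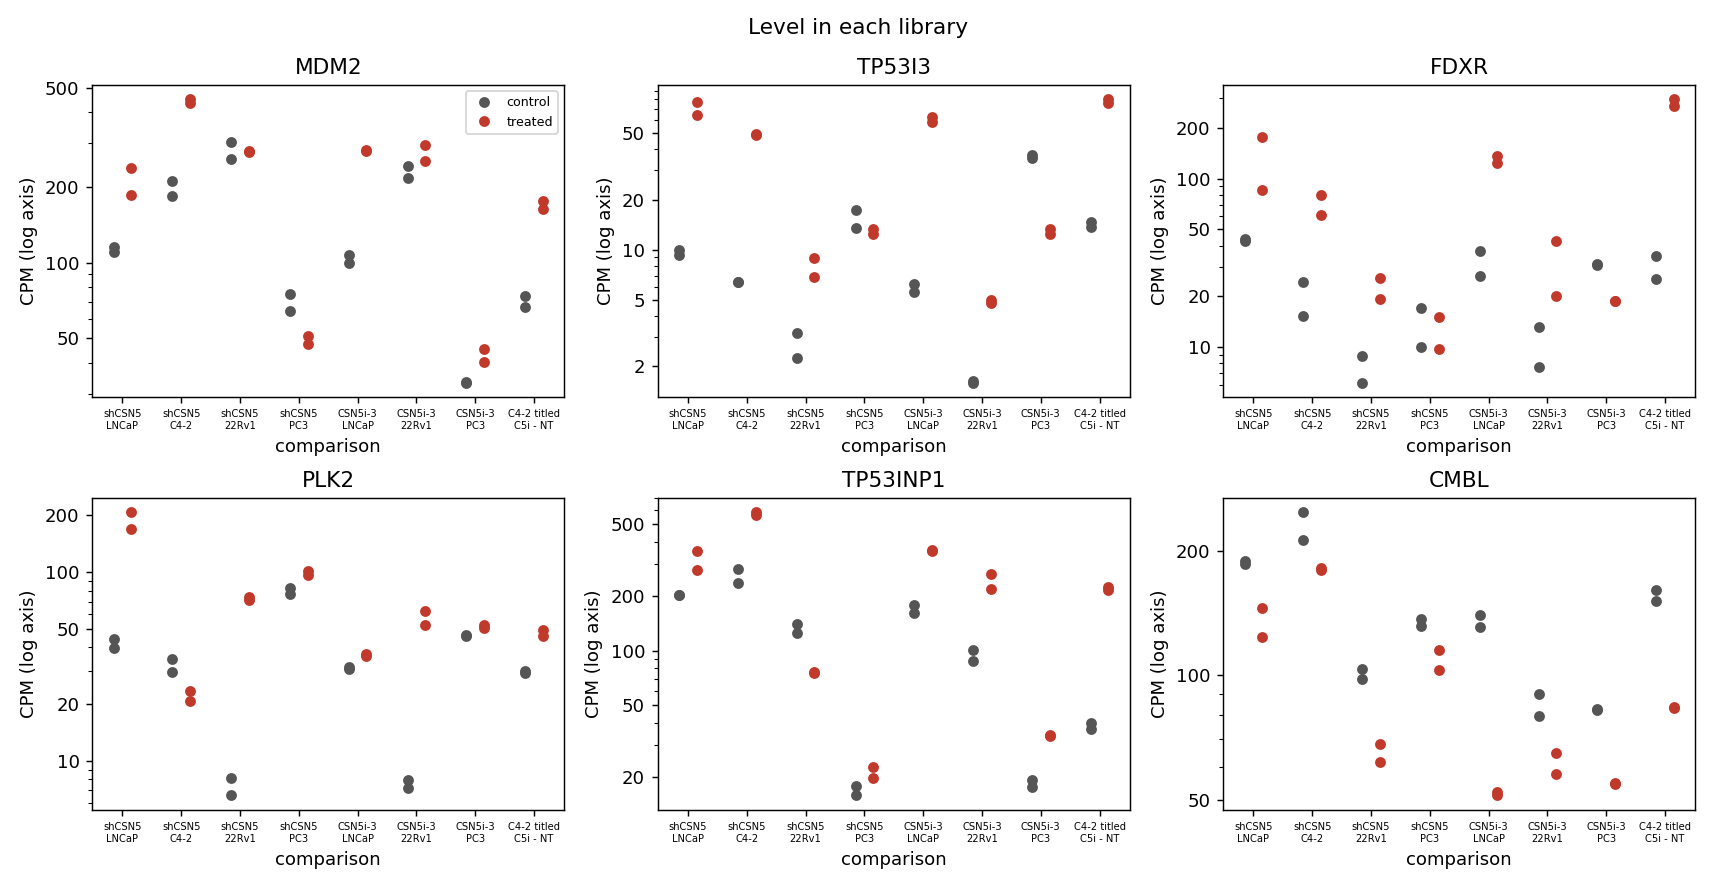
Level in CPM (log axis) of 6 members in each library, control in grey and treated in red, for the 8 comparisons. TP53I3 and FDXR rise in the lines that make p53, PLK2 and TP53INP1 move in different directions between lines, and CMBL is lower with treatment in every pair of groups.

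Of the 10 tested apoptosis genes, 6 rose in LNCaP with 1 lower, 9 rose in C4-2 and 8 in 22Rv1. TP53I3 (PIG3), a quinone oxidoreductase linked to p53-driven oxidative stress, had the largest rise among them in LNCaP and C4-2. Its level went from 9.999 and 9.32 to 64.1 and 76.7 CPM in LNCaP (2.87 ± 0.17) and from 6.45 and 6.41 to 49.7 and 48.8 CPM in C4-2 (2.94 ± 0.13). In 22Rv1 it started lower and went from 3.17 and 2.24 to 8.89 and 6.86 CPM (1.55 ± 0.21). FAS, the receptor of Fas ligand, rose from 3.26 and 3.62 to 21.1 and 15.1 CPM in LNCaP (2.40 ± 0.23), by 1.84 ± 0.14 in C4-2 and by 0.88 ± 0.13 in 22Rv1. TNFRSF10B, the TRAIL receptor DR5, rose in all 3 lines by 0.64 to 0.96. TNFRSF10C, a decoy TRAIL receptor without a death domain, fell in LNCaP from 10.9 and 11.3 to 4.07 and 5.88 CPM (-1.16 ± 0.22). These receptors are paralogs, and how reads that fit both were shared out is not given in the sources used here.

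PHLDA3, an inhibitor of AKT signalling, rose in 22Rv1 from 6.10 and 4.91 to 30.8 and 24.1 CPM (2.32 ± 0.17) and in C4-2 by 1.59 ± 0.28. In LNCaP its shCSN5 libraries stood far apart, at 66.7 and 155 CPM against 51.5 and 49.8 CPM with scramble (1.13 ± 0.37, edgeR adjusted p = 0.056). NINJ1, a protein of plasma membrane rupture, and FDXR, the mitochondrial ferredoxin reductase, had the same replicate 2 high there: 105 and 198 CPM for NINJ1, and 85.7 and 176 CPM for FDXR. EDA2R, a TNF receptor family member, was expressed at a testable level only in 22Rv1 in this experiment, where it rose from 7.95 and 8.74 to 14.9 and 15.7 CPM (0.87 ± 0.14). PERP, an apoptosis effector of the plasma membrane, rose by 1.505 ± 0.14 in LNCaP and 0.38 ± 0.11 in C4-2 and was at 0.19 ± 0.08 in 22Rv1, not past the threshold. AEN, a nuclease, rose in C4-2 (0.49 ± 0.12) and 22Rv1 (0.62 ± 0.09), and CYFIP2, a regulator of actin, rose in LNCaP (0.52 ± 0.12) and C4-2 (1.57 ± 0.12). TRIAP1, a small mitochondrial lipid-transfer protein that restrains apoptosis, rose in all 3 lines by 0.49 to 1.02.

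All 3 growth-arrest genes rose in each of these lines. BTG2, an antiproliferative regulator of mRNA decay, went from 26.03 and 24.2 to 125 and 124 CPM in C4-2 (2.31 ± 0.10), and rose by 2.00 ± 0.13 in LNCaP and 1.16 ± 0.08 in 22Rv1. GADD45A, a stress sensor that binds PCNA, rose by 1.97 ± 0.19, 1.69 ± 0.14 and 1.17 ± 0.12 in LNCaP, C4-2 and 22Rv1. SERTAD1, a CDK4-binding transcriptional cofactor, went from 7.51 and 5.56 to 29.4 and 26.9 CPM in 22Rv1 (2.11 ± 0.16). Its LNCaP shCSN5 libraries again differed, at 16.6 and 31.2 CPM (1.47 ± 0.31).

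Of the 5 repair genes, 4 rose in LNCaP, 5 in C4-2 and 3 in 22Rv1. RPS27L, a ribosomal protein paralog, rose in each by 0.84 to 1.81, and its reads could be shared with RPS27. RRM2B, the p53-inducible subunit of ribonucleotide reductase, rose by 0.98 ± 0.16 in LNCaP, 0.93 ± 0.11 in C4-2 and 0.30 ± 0.09 in 22Rv1. DDB2, which recognises UV lesions, rose in C4-2 (1.08 ± 0.11) and 22Rv1 (0.66 ± 0.10) and was at 0.27 ± 0.14 in LNCaP. XPC, its partner in lesion recognition, and POLH, a polymerase that bypasses UV lesions, rose in LNCaP and C4-2, by 0.43 to 0.96, and neither passed the threshold in 22Rv1.

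Of 9 genes of metabolism, stress and organelle turnover, 8 rose in LNCaP, 6 in C4-2 and 8 in 22Rv1, and CMBL fell in each. KITLG, the KIT ligand, had the largest rise of all members in LNCaP, from 3.96 and 4.52 to 33.7 and 30.6 CPM (2.92 ± 0.18). ZMAT3, an RNA-binding protein, went from 46.2 and 42.3 to 163 and 168 CPM in C4-2 (1.90 ± 0.10) and rose by 1.89 ± 0.16 in LNCaP and 0.91 ± 0.09 in 22Rv1. SPATA18, a mediator of mitochondrial quality control, ACER2, a Golgi ceramidase, SESN1, a leucine-sensing inhibitor of mTORC1, and FDXR rose in all 3 lines. DRAM1, a lysosomal regulator of autophagy, rose in LNCaP (0.83 ± 0.16) and 22Rv1 (0.93 ± 0.16), and CES2, a carboxylesterase, in LNCaP (0.43 ± 0.13) and 22Rv1 (0.27 ± 0.09). CMBL, a cysteine hydrolase, went from 189 and 186 to 146 and 124 CPM in LNCaP, from 249 and 213 to 180 and 182 CPM in C4-2 and from 98.2 and 104 to 61.8 and 68.3 CPM in 22Rv1. Its changes were -0.48 ± 0.13, -0.35 ± 0.10 and -0.63 ± 0.09. In LNCaP the edgeR adjusted p of CMBL rose to 0.46 or 0.43 when scramble replicate 1 or 2 was left out. In C4-2 it was 0.071 when scramble replicate 1 was left out, 0.20 or 0.15 when shCSN5 replicate 1 or 2 was, and 0.094 with no low-count filter.

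In PC3, which lacks p53, 3 targets passed the threshold with shCSN5. Of 32 tested members 2 rose and 1 fell, against 10.3% and 6.41% of all genes, the members' median was -0.029 against 0.036 for all genes, and 13 members had an unadjusted p under 0.05. GADD45A rose from 42.2 and 41.3 to 73.6 and 72.4 CPM (0.81 ± 0.10, edgeR adjusted p = 0.011). RRM2B rose from 101 and 91.9 to 151 and 136 CPM (0.57 ± 0.11, edgeR adjusted p = 0.025, and 0.20 and 0.067 without shCSN5 replicate 1 and 2). MDM2 fell from 75.0 and 64.6 to 51.02 and 47.5 CPM (-0.50 ± 0.12, edgeR adjusted p = 0.046). That MDM2 call was lost with total counts for scaling (0.072) and without scramble replicate 1 (0.065), shCSN5 replicate 1 (0.19) or shCSN5 replicate 2 (0.28). TP53I3, at 13.5 and 17.4 CPM with scramble, was at 12.4 and 13.3 CPM with shCSN5 (-0.27 ± 0.17, edgeR adjusted p = 0.33). BTG2, ACER2 and FDXR were at 0.22 ± 0.24, -0.21 ± 0.35 and -0.12 ± 0.33, none past the threshold. SPATA18 had 0 counts in all 4 libraries. The count of 3 changed members rested on the libraries: leaving out scramble replicate 1 gave 5, scramble replicate 2 gave 10 (4 higher and 6 lower), and either shCSN5 library gave 1, with the second of these being the library with the drug-treated field. It was 8, with 4 in each direction, when the spread was shared by all libraries of the experiment. With total counts for scaling 3 rose and 0 fell, and the median was 0.042, so its sign is not settled.

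The difference between lines was tested itself. Relative to the mean effect in the other 3 lines, shCSN5 moved 24 of 34 tested members lower in PC3 and 0 higher, where 12.7% of all genes were lower and 12.6% higher. The members' median difference was -1.08 (all genes 0.003), or -0.94 without SPATA18 and EDA2R, which had 3 or fewer counts in a PC3 group. TP53I3 (-2.75 ± 0.19), SERTAD1 (-2.14 ± 0.32) and ACER2 (-1.82 ± 0.31) differed most. TP53INP1 (-0.03 ± 0.15), CCNG1 (-0.21 ± 0.13) and RRM2B (-0.20 ± 0.14) were among the members whose difference did not pass.

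PC3 and LNCaP share a count table and a title code, 22Rv1 and C4-2 another. Within the first table, PC3 minus LNCaP gave 21 of 33 members lower and 1 higher, against 13.1% and 11% of all genes (medians -1.39 and 0.004). KITLG (-2.60 ± 0.19), TP53I3 (-3.20 ± 0.24) and ACER2 (-2.29 ± 0.42) had the largest negative differences, and MDM2 differed by -1.48 ± 0.19. Of the 2 members with a positive difference, TNFRSF10C, the decoy receptor, was the 1 that passed the threshold (1.63 ± 0.43). It fell in LNCaP and was at 0.54 ± 0.34 in PC3.

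Within the second table, 22Rv1 minus C4-2 gave 16 of 34 members lower and 3 higher, against 7.76% and 5.53% of all genes (medians -0.46 and 0.026). The change in 22Rv1 was lower than in C4-2 for MDM2 (difference -1.20 ± 0.11), TP53I3 (-1.41 ± 0.25), CYFIP2 (-1.46 ± 0.13) and TP53INP1 (-1.99 ± 0.11). PLK2 (3.82 ± 0.18), SERTAD1 (1.05 ± 0.24) and TNFRSF10B (0.29 ± 0.08) had the larger value in 22Rv1. Without 22Rv1 shCSN5 replicate 2 the 19 differences became 12.

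**Figure D3:**
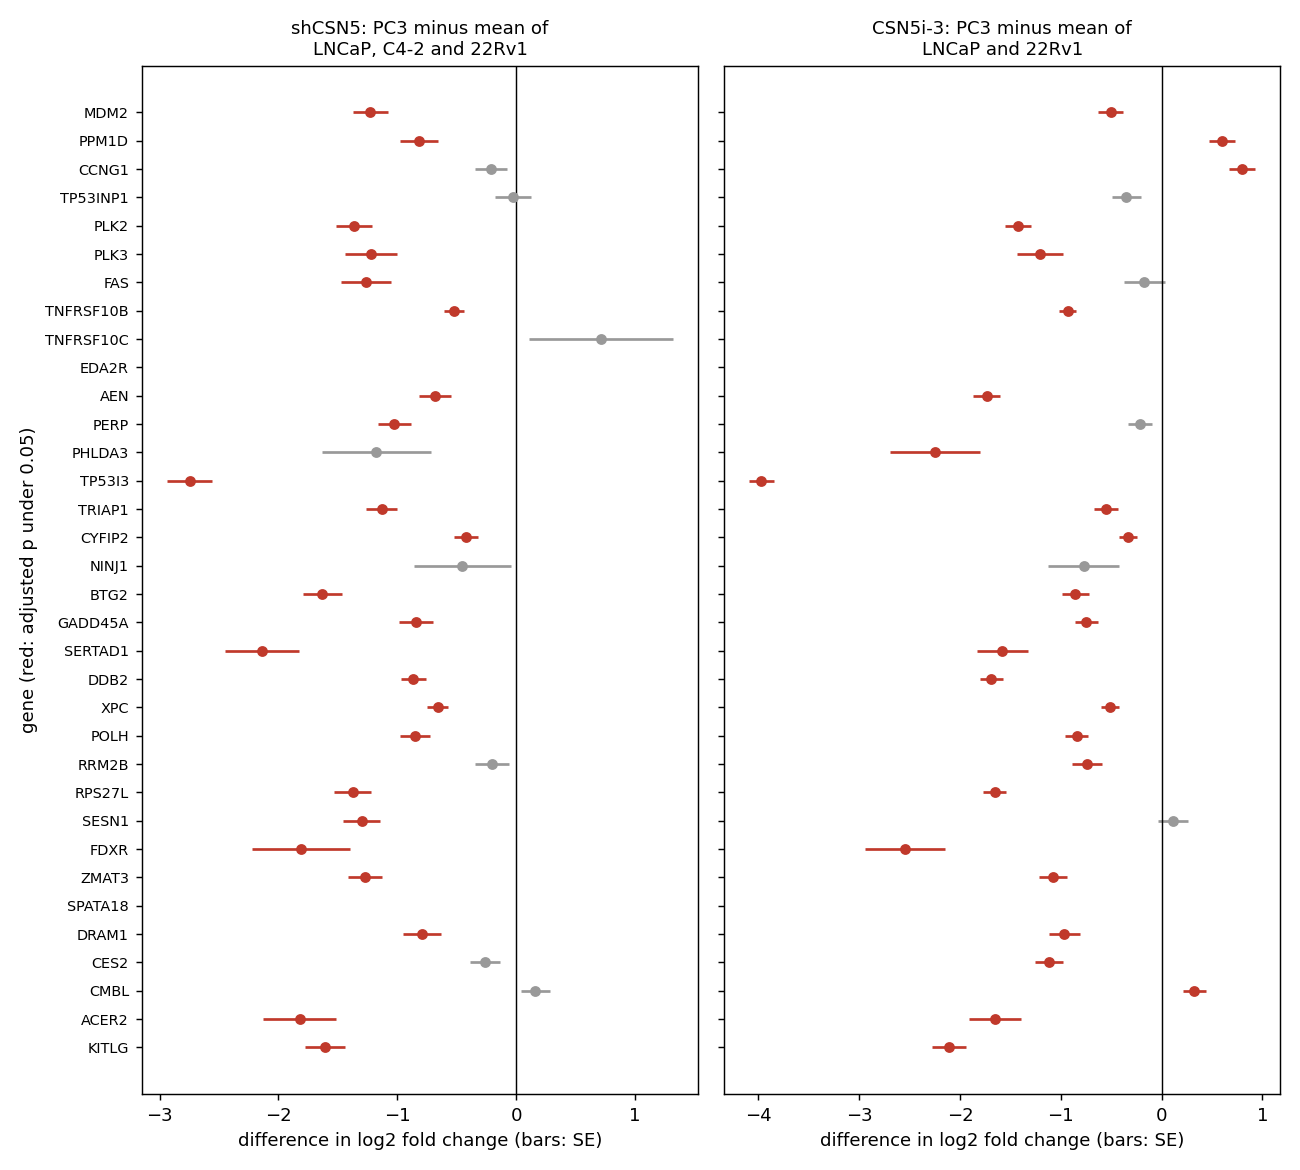
Difference in log2 fold change between PC3 and the mean of the other lines for each member (points, bars are SE; red for adjusted p under 0.05), for shCSN5 on the left and CSN5i-3 on the right. Members with 3 or fewer counts in a group are not drawn; 24 points on the left are red and all of them lie below 0, and on the right CCNG1, PPM1D and CMBL lie above 0.

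With the inhibitor CSN5i-3 at 5 µM most members rose in LNCaP. There 30 of 33 tested members rose and 2 fell, where 26.2% of all genes rose and 26.5% fell, and the members' median was 1.27 (all genes 0.004). MDM2 went from 107 and 99.9 to 278 and 283 CPM (1.44 ± 0.07). TP53I3 went from 5.62 and 6.25 to 62.6 and 58.2 CPM (3.35 ± 0.10), and KITLG from 2.62 and 2.43 to 24.1 and 26.6 CPM (3.33 ± 0.12). The treated libraries were above the controls for all of these genes. PHLDA3 rose from 45.4 and 60.3 to 269 and 250 CPM (2.30 ± 0.13). TNFRSF10C fell from 11.6 and 12.4 to 5.96 and 6.11 CPM (-0.99 ± 0.10), and CMBL fell from 140 and 131 to 52.1 and 51.2 CPM (-1.39 ± 0.07). All 6 feedback genes, all 3 growth-arrest genes and all 5 repair genes rose, and SESN1 (0.18 ± 0.07, edgeR adjusted p = 0.072) was the 1 tested member not called. Other values moved with the inhibitor in these libraries: the luminal marker sum went from 5375 and 5440 to 1432 and 1436 CPM, VIM from 3.08 and 3.48 to 22.6 and 21.9 CPM, the share of mitochondrial counts was 7.3% and 7.5% against 6.0% and 5.5%, and the summed level of the leukocyte markers (2 of the 4 were in that table, CD68 and CD14) went from 0.28 and 0.36 to 25.3 and 24.9 CPM. CD68 made up nearly all of it, and CD14 was at 0 with DMSO. Their part in the p53-target values was not tested.

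In 22Rv1 at 5 µM, 22 of 33 members rose and 0 fell, against 11.8% and 12.2% of all genes (medians 1.12 and -0.043). PLK2 went from 7.96 and 7.16 to 52.3 and 62.7 CPM (2.93 ± 0.20). DRAM1 went from 5.88 and 5.08 to 20.7 and 24.9 CPM (2.06 ± 0.21). PHLDA3 went from 5.36 and 10.6 to 46.7 and 19 CPM (2.04 ± 0.50), and FDXR from 7.58 and 13.2 to 42.8 and 19.98 CPM (1.60 ± 0.42). For both, replicate 1 was the higher of the treated libraries and the lower of the controls, and the groups did not overlap. MDM2 had 243 and 218 CPM in the DMSO libraries against 254 and 296 CPM with CSN5i-3, which did not overlap but did not pass (0.26 ± 0.14, edgeR adjusted p = 0.25, and 0.049 when the spread was shared by all libraries of the experiment). TNFRSF10C, untested, had 0 counts with DMSO and 4 with CSN5i-3. In these libraries the PC3-type sum went from 101 and 90.3 to 231 and 259 CPM, the fibroblast sum from 13.5 and 14.6 to 33.6 and 32.3 CPM and the luminal sum from 1865 and 1775 to 1314 and 1253 CPM. Most of the fibroblast sum was LUM, which went from 10.2 and 8.69 to 24.9 and 27.6 CPM. No PC3-type, fibroblast or luminal marker was at 0 in both libraries of a group, and their part in the p53-target values was not tested.

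At 5 µM in both, LNCaP minus 22Rv1 gave 7 of 33 members higher and 5 lower, against 5.57% and 10% of all genes (medians 0.25 and -0.03). Higher in LNCaP were TP53I3 (1.71 ± 0.17), KITLG (1.33 ± 0.21), RRM2B (1.27 ± 0.19) and MDM2 (1.15 ± 0.14), and higher in 22Rv1 were PLK2 (-2.74 ± 0.17) and DRAM1 (-1.41 ± 0.21). TNFRSF10C is among the 5, with 0 counts in 22Rv1 DMSO, so its fitted value is no measure of size. Without it the median is 0.33. The lines come from separate count tables in this comparison, so table and line cannot be told apart.

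In PC3 CSN5i-3 at 10 µM changed most members, in both directions, as it did most genes. Of 32 members 18 rose (56.2%) and 9 fell (28.1%), where 38.5% of all genes rose and 38.5% fell. The members' median was 0.17, against -0.007 for all genes. All 6 feedback genes rose, among them CCNG1 from 87.7 and 89.8 to 220.2 and 220.2 CPM (1.31 ± 0.03), PPM1D from 18.4 and 19.5 to 44.2 and 45.8 CPM (1.24 ± 0.05) and MDM2 from 33.4 and 33.7 to 45.3 and 40.3 CPM (0.36 ± 0.05). FAS rose from 1.98 and 2.19 to 7.15 and 6.17 CPM (1.68 ± 0.13). The growth-arrest genes BTG2, GADD45A and SERTAD1 rose by 0.57 ± 0.14, 0.95 ± 0.03 and 0.31 ± 0.05.

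The 9 members that fell in PC3 with CSN5i-3 were TP53I3, DDB2, FDXR, AEN, CES2, CMBL, POLH, RPS27L and TNFRSF10C. TP53I3, the strongest riser in LNCaP with CSN5i-3, went from 37.0 and 35.2 to 12.4 and 13.4 CPM (-1.49 ± 0.06). DDB2 went from 20.5 and 21.3 to 9.69 and 9.69 CPM (-1.11 ± 0.07), and TNFRSF10C from 1.77 and 1.74 to 0.83 and 1.04 CPM (-0.92 ± 0.23). FDXR (-0.72 ± 0.05) and AEN (-0.70 ± 0.05) followed, and the groups did not overlap for any of these 5 genes. In the same libraries the sum of 4 fibroblast markers went from 58.0 and 54.4 to 14.7 and 14.2 CPM. Nearly all of that sum was COL1A1, which went from 57.1 and 53.5 to 14.4 and 14.1 CPM. DCN had 0 counts in CSN5i-3 replicate 1, and no fibroblast marker was at 0 in both libraries of a group. The part of this sum in the p53-target values was not tested.

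Only GADD45A and RRM2B rose in both PC3 comparisons, as did 6.27% of all genes, and 0 members fell in both, against 4.84%. Relative to the mean of LNCaP and 22Rv1, the CSN5i-3 effect in PC3 was lower in 24 of 33 members and higher in 3, where 17.2% and 19.1% of all genes were (medians -0.86 and -0.014). TP53I3 differed by -3.97 ± 0.12 and FDXR by -2.54 ± 0.40. CCNG1 (0.80 ± 0.13), PPM1D (0.60 ± 0.13) and CMBL (0.32 ± 0.11) were the 3 higher in PC3. With DESeq2, RLE factors or no low-count filter 2 members were higher there, and with total counts for scaling 3. Leaving out TNFRSF10C and SPATA18, which had 3 or fewer counts in a group, left 23 lower and a median of -0.86. Dose and count table differ between PC3 and the other lines in this comparison and cannot be told apart from the line.

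In C4-2, titled C5i minus titled NT gave 31 of 33 members higher and 2 lower, against 37% and 37.9% of all genes (medians 1.87 and -0.012). GADD45A was at 7.78 and 6.999 CPM in the libraries titled NT and 157 and 148 CPM in those titled C5i (4.37 ± 0.10). FDXR went from 34.8 and 25.5 to 268 and 296 CPM (3.23 ± 0.13), and PHLDA3 from 34.9 and 27.2 to 249 and 285 CPM (3.10 ± 0.12). MDM2 went from 66.6 and 73.9 to 177 and 163 CPM (1.28 ± 0.08). The libraries titled C5i were above those titled NT for each of these genes. CMBL was lower in the libraries titled C5i, at 83.4 and 84.0 against 152 and 161 CPM (-0.90 ± 0.08). TNFRSF10C was also lower, on few reads, with 17 and 16 counts in the libraries titled NT and 4 and 4 in those titled C5i (-1.73 ± 0.51). It passed the low-count filter only through the libraries titled NT, so it could be tested only as a gene lower in those titled C5i. The TNFRSF10C call was lost in DESeq2 and when replicate 1 of either group was left out. The leukocyte sum (2 of 4 markers in the table, mostly CD68) was 6.95 and 6.97 CPM in the libraries titled NT and 51.4 and 52.7 CPM in those titled C5i, and the luminal sum was 5145 and 5172 against 1348 and 1341 CPM. Their part in the p53-target values was not tested.

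Across the comparisons that share no control library, 13 members rose in all 3 shCSN5 and both CSN5i-3 comparisons outside PC3: TP53I3, ZMAT3, FDXR, BTG2, RPS27L, FAS, TNFRSF10B, PLK3, GADD45A, SPATA18, SERTAD1, KITLG and ACER2. Of the 13082 genes tested in all 5, 3.15% did so. The same 13 were higher in the C4-2 libraries titled C5i. They come from every role group, and MDM2 is not among them because it did not rise in 22Rv1.

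Within a line, knockdown and inhibitor could be set side by side because they have separate controls. Over 33 members in LNCaP the log2 fold changes correlated at r = 0.78 (Spearman 0.65), with 25 higher in both and 2 lower in both. In 22Rv1 r was 0.82 (Spearman 0.86), with 20 higher in both and TP53INP1 and CCNG1 called in opposite directions. Over 32 members in PC3 r was 0.22 (Spearman 0.20), with 2 higher in both and MDM2 opposite. These are descriptions across genes, which are not replicates and share their libraries. In PC3 6.27% of all genes were higher in both and 4.84% lower in both. For LNCaP and 22Rv1 that share was not computed, nor was a correlation over all genes in any line. The counts and correlations therefore do not show whether the likeness is particular to the members.

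**Figure D4:**
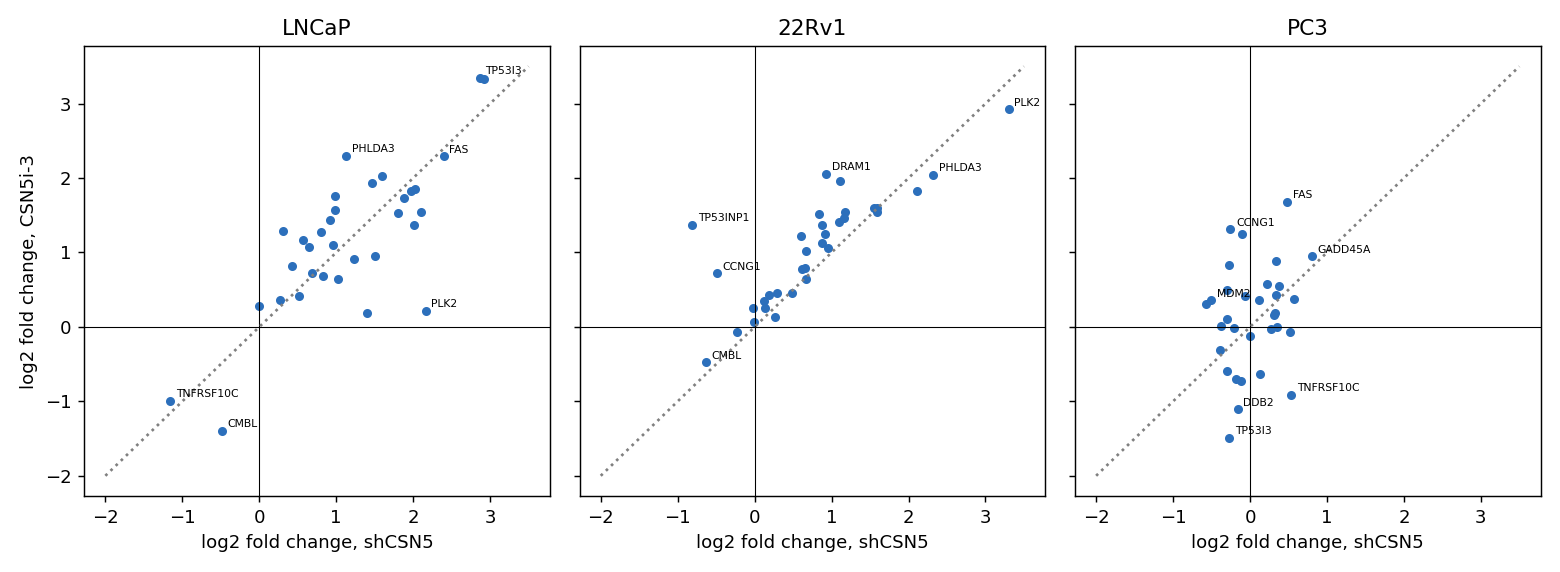
Log2 fold change with shCSN5 (x axis) and with CSN5i-3 (y axis) for each member (points) in LNCaP, 22Rv1 and PC3; the dotted line marks equal change. Among the points off the line are PLK2, SESN1, CMBL and AEN in LNCaP and TP53INP1, CCNG1 and DRAM1 in 22Rv1, and in PC3 the points spread along the y axis.

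The difference between inhibitor and knockdown was tested in each line. Experiment and count table differ between inhibitor and knockdown and cannot be told apart from the treatment. In LNCaP 3 of 33 members were higher with CSN5i-3 and 6 lower, against 6.83% and 14.5% of all genes (medians -0.011 and -0.086). AEN (0.89 ± 0.13), RRM2B (0.68 ± 0.18) and XPC (0.51 ± 0.13) were higher, and PLK2 (-2.04 ± 0.19), SESN1 (-1.32 ± 0.19) and CMBL (-1.01 ± 0.15) were the lowest. In LNCaP CSN5i-3 took PLK2 from 30.9 and 31.6 to 36.1 and 36.8 CPM (0.22 ± 0.07). The balance of directions rested on the shCSN5 libraries. The 9 differences became 21, with 12 higher and 9 lower, when shCSN5 replicate 2 was left out, and 13, with 7 higher and 6 lower, without shCSN5 replicate 1. They became 4 when scramble replicate 1 or CSN5i-3 replicate 1 was left out, and 5 when replicate 2 of scramble, DMSO or CSN5i-3 was.

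In 22Rv1 4 of 33 members were higher with CSN5i-3 and 0 lower, against 2.38% and 1.9% of all genes (medians 0.18 and -0.05). These were TP53INP1 (2.20 ± 0.18), CCNG1 (1.22 ± 0.17), DRAM1 (1.14 ± 0.25) and RPS27L (0.69 ± 0.14). TP53INP1 in 22Rv1 went from 101 and 87.6 to 220 and 266 CPM with CSN5i-3 (1.37 ± 0.16), while it fell with shCSN5. The count was 1 when any single library of the shRNA experiment was left out and 2 when either DMSO library was. In PC3 11 of 32 members were higher with CSN5i-3 and 4 lower, against 20.5% and 18.6% of all genes (medians 0.19 and 0.009). CCNG1 (1.64 ± 0.12), PPM1D (1.42 ± 0.15), FAS (1.27 ± 0.20) and MDM2 (0.93 ± 0.15) were higher, and TNFRSF10C (-1.39 ± 0.38), TP53I3 (-1.15 ± 0.17) and DDB2 (-0.88 ± 0.12) were lower. The PC3 count of 15 was 9, with 6 higher and 3 lower, without DMSO replicate 1, DMSO replicate 2 or CSN5i-3 replicate 1. In other settings 11 were higher and 8 lower with total counts for scaling (median 0.045), 9 and 7 with no low-count filter, 13 and 9 without scramble replicate 2 and 11 and 7 without scramble replicate 1.

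Control libraries of PC3 and LNCaP were compared for the level of the members without treatment. These comparisons share their libraries with the effects above, so no overlap between them is given. With scramble 7 of 33 members were higher in PC3 and 19 lower, where 41.6% of all genes were higher and 38.2% lower (medians -0.60 and 0.058). With DMSO 12 were higher and 20 lower, against 38.9% and 46.7% of all genes (medians -0.35 and -0.16), and there the 2 lines come from separate tables. SPATA18 had 414 counts in the LNCaP scramble libraries and 0 in those of PC3, at least 135-fold lower against a floor of 3 counts over the group, and with DMSO 806 and 0 counts, at least 308-fold lower. BTG2 was lower in PC3, at -4.39 ± 0.19 (scramble) and -3.94 ± 0.10 (DMSO) on the log2 scale. SESN1 was lower too, at -3.26 ± 0.10 and -3.885 ± 0.09, as was TP53INP1, at -3.68 ± 0.10 and -3.11 ± 0.09. GADD45A was higher in PC3 by 2.39 ± 0.16 and 2.71 ± 0.08, KITLG by 3.17 ± 0.14 and 2.65 ± 0.12, and TP53I3 by 0.59 ± 0.16 and 2.70 ± 0.10. CCNG1 was higher in PC3 with scramble (0.44 ± 0.10) and lower with DMSO (-1.61 ± 0.07), and MDM2 was lower in both (-0.78 ± 0.11 and -1.53 ± 0.07).

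Of 22 genes listed as regulators or relatives of p53, 21 were tested in each treated-minus-control comparison. With shCSN5 4 rose and 5 fell in LNCaP, where 18.3% and 17.4% of all genes did, and 2 and 5 in C4-2, against 15.7% and 16.2%. In 22Rv1 0 rose and 7 fell, against 22.6% and 21.3%, and in PC3 2 and 0, against 10.3% and 6.41%. CHEK1 and CHEK2, the checkpoint kinases that phosphorylate p53, fell in LNCaP (-2.71 ± 0.16 and -1.40 ± 0.15), C4-2 (-1.66 ± 0.12 and -1.06 ± 0.13) and 22Rv1 (-1.33 ± 0.09 and -0.73 ± 0.10). ATM, the kinase that responds to double-strand breaks, also fell in each of the 3, at -1 ± 0.19, -0.59 ± 0.14 and -0.79 ± 0.09. HIPK2, which phosphorylates p53 in apoptosis, rose in LNCaP (1.48 ± 0.11) and C4-2 (0.53 ± 0.09). In PC3 the 2 that rose were HUWE1, a ubiquitin ligase (0.40 ± 0.08), and TP63, a p53 family member (2.37 ± 0.52). The TP63 value rests on few reads, with 2 and 2 counts with scramble and 12 and 13 with shCSN5. It passed the low-count filter only through its shCSN5 libraries, so it could be tested only as a gene that rose. Its call is therefore not to be set against the share of all genes. With CSN5i-3 8 rose and 6 fell in LNCaP, against 26.2% and 26.5% of all genes, 0 and 3 in 22Rv1, against 11.8% and 12.2%, and 12 and 6 in PC3, against 38.5% each way. In the C4-2 libraries titled C5i 7 were higher and 8 lower, against 37% and 37.9%. MDM4, the MDM2 relative that inhibits p53, rose with CSN5i-3 in LNCaP (0.35 ± 0.09) and PC3 (0.84 ± 0.04) and fell with shCSN5 in 22Rv1 (-0.55 ± 0.09).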

How the data were processed

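RNA-seq was available as 6 tables of raw counts per gene and library, which the authors deposited, per the values and headers of the files. The submitters' processing notes name Partek, with no version. The sources used here do not give the aligner, genome build, annotation or strand setting. Totals were 20.61 to 50.92 M counts per library. Genes were matched by symbol (COP1 also as RFWD2, by its Ensembl identifier). The C4-2 inhibitor table holds 1 empty entry, left out, and EDA2R was not analysed in the inhibitor tables of LNCaP and C4-2. PECAM1 was not used in the Ensembl tables.

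Each of 18 comparisons was fitted across all genes in R 4.3.3 with edgeR 4.0.16 (quasi-likelihood F test, TMM, low genes left out by filterByExpr at a minimum count of 10, Benjamini-Hochberg adjusted p under 0.05), on its own groups, with 2 residual degrees of freedom in each treated-minus-control comparison. Differences between lines or treatments are interaction contrasts. SEs were derived as |log2 fold change| over the square root of F. Groups totalling at most 3 counts were treated as at the floor, which covers counting error only. The test was checked, for some of the comparisons, on counts simulated with the same spread for all genes and libraries. The groups here differed in spread, so that check does not speak for them. Alternatives were DESeq2 1.42.0, other scaling, no filter, a replicate block, a shared spread and leaving out each library.

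Values per library are given for MDM2 and, in each comparison, for the 3 called members with the largest change each way and a mean of at least 1 CPM. Any of the 34 members may be named, and values per library beyond that rule were added after they were seen. The members and lists were chosen with earlier results of these data known. Promoters came from RefSeq (GRCh38.p14). 1 gene of the fixed list of pathway genes is not reported here.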

Additional observations from a re-analysis of the deposited data

Results flagged for a closer look

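Responses that differed between lines, each by an interaction contrast in edgeR, were the results singled out for a second look. For shCSN5, 22 members differed between PC3 and LNCaP, 24 between PC3 and the mean of the other 3 lines, and 19 between 22Rv1 and C4-2. For CSN5i-3, 27 members differed between PC3 and the mean of LNCaP and 22Rv1, and 12 between LNCaP and 22Rv1. With shCSN5 MDM2 was called in opposite directions in PC3 and LNCaP (difference -1.48), as were TP53INP1 (-1.99) and PLK2 (3.82) in 22Rv1 and C4-2. With CSN5i-3 TP53I3 (-3.97), FDXR (-2.54), AEN (-1.74), RPS27L (-1.66), DDB2 (-1.69), CES2 (-1.11) and POLH (-0.84) fell in PC3 and rose in LNCaP, 22Rv1 or both. TNFRSF10C, among the CSN5i-3 differences, had 0 counts in 22Rv1 DMSO.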

How the results depend on the processing

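Of the 44 changes of single genes recomputed under the alternatives, MDM2 with shCSN5 in 22Rv1, which did not pass the threshold, was the 1 whose sign changed (0.047 with total counts, 0.086 without scramble replicate 2 and 0.013 without shCSN5 replicate 1, from -0.02). The balance of directions among the called members changed too. Inhibitor minus knockdown in LNCaP had 3 members higher and 6 lower, and 12 and 9 without shCSN5 replicate 2 or 7 and 6 without shCSN5 replicate 1. shCSN5 in PC3 had 2 and 1, and 4 and 6 without scramble replicate 2, and its median went from -0.029 to 0.042 with total counts. DESeq2 and edgeR with RLE factors moved no count of changed members by over 1.5 times. Same-numbered replicates deviated together by r from -0.64 to 0.54, and groups have 2 numbers, so the numbers were not taken to pair libraries. With a replicate block the counts of changed members moved by over 1.5 times for shCSN5 in PC3 (20, with 11 higher and 9 lower, from 3; r = 0.54 there), the CSN5i-3 difference between LNCaP and 22Rv1 (4, with 3 higher and 1 lower, from 12), and inhibitor minus knockdown in 22Rv1 (1, from 4) and PC3 (23, with 13 higher and 10 lower, from 15). For shCSN5 in C4-2 the block left 24 higher and 0 lower, and the edgeR adjusted p there was 0.076 for PLK2 and 0.17 for CMBL, and 0.068 for CMBL in LNCaP. With a block of crossed numbers, chosen after seeing the data, counts were 33 for shCSN5 in C4-2, 30 for CSN5i-3 in 22Rv1 (MDM2 adjusted p = 0.00081 in edgeR) and 33 for the titled C4-2 pairs. A shared spread gave 8 for shCSN5 in PC3. Leaving out 1 library gave 16 to 33 for shCSN5 in LNCaP, 1 to 10 in PC3, 12 to 23 for 22Rv1 minus C4-2, and 4 to 21, 1 to 6 and 9 to 22 for inhibitor minus knockdown in LNCaP, 22Rv1 and PC3. A lone library is then assumed to vary like the other group. The other counts stayed within 1.5 times. The cause was not tested. Depth limits members near the floor, SPATA18 and EDA2R in PC3 and TNFRSF10C in 22Rv1.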
